A study of Canis lupus familiaris with 8 samples.

Results

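The miR-23, miR-24 and miR-27 clusters were examined in the serum of Doberman Pinschers, a dog breed prone to dilated cardiomyopathy (DCM), in which the heart chambers widen and contract poorly. Members were all listings on the array, canine (cfa) or murine (mmu), of the mature miR-23a, miR-23b, miR-24, miR-27a and miR-27b, chosen by name alone and without the star strands. There were 9 such listings among the 1224 miRNA names analysed, 5 canine and 4 murine, and all 9 were among the 438 names detected, that is with at least 1 feature kept by the filter on dim features. A murine listing of miR-27b was not analysed here. The DCM group consisted of 4 client-owned dogs, labelled DoCM5 to DoCM8, in the occult stage of the disease. Per the study's methods they were all treated with pimobendan and an ACE inhibitor, together with sotalol or amiodarone as antiarrhythmic drug. The control group consisted of 4 clinically healthy dogs, labelled Con1 to Con4, for which the methods name no drugs. Disease and medication cannot be told apart. The labels give an age of 7 to 11 years for both groups. The study's own list of patients has ages outside this range in the DCM group, and it calls the dog it left out young. Each array held the RNA of 1 dog, extracted from serum of clotted blood. The comparison asks whether circulating miRNAs differ between diseased and healthy dogs.

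MicroRNAs are short RNAs that bind target mRNAs, mainly through the seed at their 5′ end, and lower their translation or stability. These 5 miRNAs are cut from transcripts of a pair of paralogous clusters, one with miR-23a, miR-27a and miR-24, the other with miR-23b, miR-27b and miR-24. The a and b forms of miR-23 share a seed and differ by a single base near the 3′ end, as do those of miR-27, while miR-24 comes from both clusters with the same mature sequence. The clusters are expressed in endothelial cells, blood cells and heart, among other tissues, and have been studied in angiogenesis, lipid metabolism and cardiac remodelling. In serum and plasma, miR-23a is used as the partner of miR-451, a miRNA of red blood cells, in a ratio that reports haemolysis. In the RefSeq gene table of the dog assembly UU_Cfam_GSD_1.0, MIR23A, MIR27A and MIR24-2 lie in this order on 1 chromosome with no other listed gene overlapping their span. MIR24-1, MIR27B and MIR23B lie together on another chromosome, where the genes FANCC and C1H9orf3 overlap their span. The genes were used for their neighbourhood only, since the array was designed on another build.

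All 8 arrays lay on 1 slide. Its first row held the DCM dogs and its second row the controls, and the effect of a row cannot be told apart from that of the disease. Between 10817 and 14000 features (spots) per array were well above background, and none was saturated. The array labelled DoCM5 was the brightest, and its median correlation over the detected names with the remaining arrays was the lowest, 0.924, against 0.957 to 0.968 for the others. The study left out a DCM array that it names DoCM8, describing it as very different from the others and brighter. Among the arrays analysed here the one labelled DoCM8 had the highest median correlation, 0.968, and DoCM5 fitted that description more closely. Whether the labels and the study number the dogs alike was not tested, so the array left out here may not be the one the study left out. The comparison was therefore made on 7 arrays without DoCM8, and again on all 8 arrays and on 7 arrays without DoCM5. Values are glog2 values, a normalized signal that reads as log2 for bright features and flattens near the background. The values of single arrays below come from the normalization of all 8 arrays, which differed from that of the 7 arrays by at most 0.0488 for any member. Apart from the summed levels of the marker lists, levels of different listings were not set against each other, because probes differ in binding.

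Every member listing had 2 probes with 20 features each, and all 40 features of each listing were kept by the filter. Detection was complete for the listings of miR-23a, miR-27a, miR-27b, cfa-miR-23b and mmu-miR-24, with 40 of 40 features well above background on all 8 arrays. The listings cfa-miR-24 and mmu-miR-23b were near the background on some arrays. For cfa-miR-24, between 18 features on DoCM7 and all 40 on Con1 and Con3 were well above background, and its mean signal was only 6.39 to 14.4. For mmu-miR-23b the fewest were 32 features, also on DoCM7, at mean signals of 20.7 to 90.5. The serum thus gave a clear signal in at least 1 listing of each of the 5 miRNAs, and for miR-24 in the murine listing. Since paralogs differ by a single base, a probe may also bind the other paralog, and this was not tested. Within a probe, the 20 features of an array had a median coefficient of variation of 2.63% to 7.82% for 15 of the 18 member probes. It was 16.6% and 18.7% for the probes of cfa-miR-24 and 17.3% for the dimmer probe of mmu-miR-23b.

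cfa-miR-23a, the reference in the haemolysis ratio, differed little between dogs. Its glog2 values were 11.62, 11.31, 11.49 and 11.55 on DoCM5 to DoCM8, and 11.60, 11.36, 11.57 and 11.19 on Con1 to Con4. The groups overlapped fully, with the highest value on a DCM array and the lowest on a control array. Before normalization its mean signal ran from 1634 on Con4 to 7328 on DoCM5, a ratio of 4.48, and normalization reduced this to a ratio of 1.34. Over the 7 arrays the DCM mean was 11.50 ± 0.16 (SD, n = 3) and the control mean 11.47 ± 0.19 (SD, n = 4). The log2 difference, DCM minus control, was 0.03 with a standard error of 0.31 in limma (95% confidence interval -0.64 to 0.70, adjusted p = 0.997, exact permutation p = 0.886, two-sided). The interval of the fold ran from 0.640 to 1.62. mmu-miR-23a had values of 11.01, 10.56, 10.83 and 10.88 on DoCM5 to DoCM8 and of 11.02, 10.77, 10.91 and 10.58 on Con1 to Con4. The lowest DCM dog and the lowest control dog were thus nearly level in this listing, and its log2 difference was -0.04 with an exact permutation p of 0.771.

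cfa-miR-23b, the paralog from the other cluster, had values of 9.51, 9.53, 9.72 and 9.79 on DoCM5 to DoCM8. On Con1 to Con4 they were 9.74, 9.55, 9.76 and 9.46. The 8 dogs lay within 0.34 on the glog2 scale, a ratio of 1.26, with DoCM8 highest and Con4 lowest. The log2 difference was -0.06 with a standard error of 0.30 (95% confidence interval -0.72 to 0.60, adjusted p = 0.997 in limma, exact permutation p = 0.629). The dimmer listing mmu-miR-23b ranged from 4.91 to 5.36 in the DCM dogs and from 4.76 to 5.39 in the control dogs, with a log2 difference of -0.06 and an exact permutation p of 0.771.

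The listings of miR-27, a family studied for its targets in lipid metabolism and angiogenesis, varied more than those of miR-23 and were highest on the array labelled DoCM8. cfa-miR-27a had values of 8.38, 7.98, 8.25 and 8.84 on DoCM5 to DoCM8, and of 8.47, 7.79, 8.33 and 7.79 on Con1 to Con4. For cfa-miR-27b the values were 7.44, 7.47, 7.64 and 8.19 on DoCM5 to DoCM8, against 7.71, 7.23, 7.59 and 7.00 on Con1 to Con4. mmu-miR-27a followed with 9.49, 9.13, 9.48 and 9.93 on the DCM arrays and 9.49, 8.86, 9.41 and 8.79 on the control arrays. In all 3 listings DoCM8 lay above the other 7 arrays, Con2 and Con4 were the lowest, and the remaining DCM dogs lay within the range of the controls. Without DoCM8 the log2 differences were 0.09 for cfa-miR-27a, 0.12 for cfa-miR-27b and 0.21 for mmu-miR-27a. Their standard errors in limma were 0.33, 0.32 and 0.33, and the exact permutation p values were 0.743, 0.6 and 0.371. With DoCM8 included the differences were 0.27, 0.30 and 0.37, with exact permutation p values of 0.314, 0.286 and 0.2. In these 2 sets of arrays the largest difference, that of mmu-miR-27a on all 8 arrays, had a 95% confidence interval of -0.27 to 1.01, which corresponds to a fold of 0.826 to 2.02.

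For miR-24, which both clusters encode, the bright murine and the dim canine listing were considered apart. mmu-miR-24 had values of 10.55, 9.84, 10.28 and 10.26 on DoCM5 to DoCM8 and of 10.46, 10.17, 10.28 and 10.26 on Con1 to Con4. The DCM dogs spanned the controls on both sides, with DoCM5 highest and DoCM6 lowest of all arrays. The log2 difference was -0.08 with a standard error of 0.32 (95% confidence interval -0.78 to 0.62, adjusted p = 0.997 in limma, exact permutation p = 0.743). cfa-miR-24 lay between 2.86 and 3.14 in the DCM dogs and between 2.93 and 3.08 in the control dogs, with a log2 difference of 0.05 and an exact permutation p of 0.4.

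**Figure D1:**
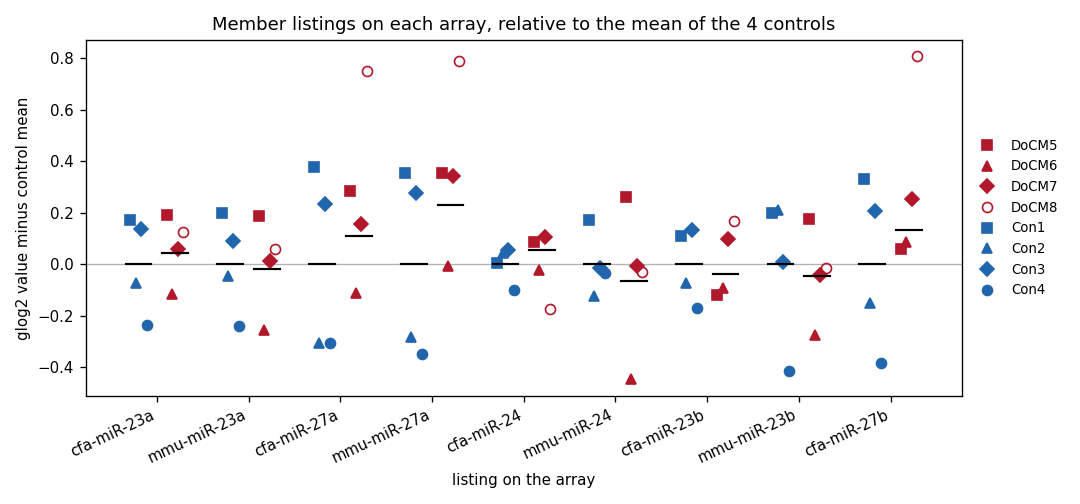
Glog2 value of each member listing on each array, minus the mean of the 4 control arrays for that listing (vertical axis), for the control arrays in blue and the DCM arrays in red, with DoCM8 as an open circle and bars for the mean of 4 controls and of the 3 DCM arrays without DoCM8. Groups overlap for all 9 listings, and DoCM8 stands highest for both listings of miR-27a and for cfa-miR-27b.

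None of the 9 member listings passed an unadjusted p under 0.05 in limma with a fold change over 1.5 on the 7 arrays without DoCM8, where 12 of the 438 detected names (2.74%) did. None of the 9 had an unadjusted p under 0.05 at all, the smallest being that of mmu-miR-27a, whose exact permutation p is given above. After adjustment 0 of the 438 names (0%) passed in limma, of which 12 had an unadjusted p under 0.05. The groups did not overlap for 0 of the 9 listings and for 19 of the 438 names (4.34%). The count of member listings past the limits was also 0 on all 8 arrays, where 17 names (3.88%) passed, and on the 7 arrays without DoCM5, where 19 names (4.34%) passed. With so few dogs the smallest exact p possible was 0.0286 in each set of arrays.

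With the vsn normalization and the main filter on dim features, the differences of the members were small beside those of the other names. On the 7 arrays without DoCM8 the median absolute log2 difference was 0.061 over the 9 listings and 0.27 over the 438 names, and 5 listings were higher and 4 lower in DCM. On all 8 arrays the medians were 0.057 and 0.24, and without DoCM5 they were 0.11 and 0.21. The directions depended on the scaling, on the filter and on single arrays. In the vsn normalization without DoCM8, all 9 listings were higher in DCM when DoCM6 was also left out. When Con4 was left out instead, 5 of 9 were lower. With scaling to the 75th percentile over all names, all 9 listings were higher in DCM, by 0.11 to 0.60 with a median of 0.35, while the median over all names was 0.11. The median absolute difference was then 0.35 over the listings and 0.25 over the names, so the members' differences were not small there. With 1 array well above background enough, all 9 were higher as well, with a median of 0.21 against -0.0089 over all names, and with no filter 8 of 9 were. For 1 array and for no filter the median absolute difference was 0.21 over the listings, against 0.27 and 0.26 over the names. With the slide column as a block 7 of 9 were lower. Without DoCM8, Con4 was alone in its column, so the group difference in this setting did not draw on Con4. No listing had an unadjusted p under 0.05 in limma in any of these settings. The position of single members among the 438 names depended on the arrays. cfa-miR-27b had a larger absolute difference than 25.8% of the names without DoCM8 and than 79.0% of them without DoCM5, when DoCM8 was among 3 DCM arrays. For cfa-miR-23a the shares were 5.48% and 5.94%. Limma shares the spread over all names, so that the standard errors above, 0.30 to 0.33, exceed what the members' own spread would give, and the permutation p values do not rest on it.

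**Figure D2:**
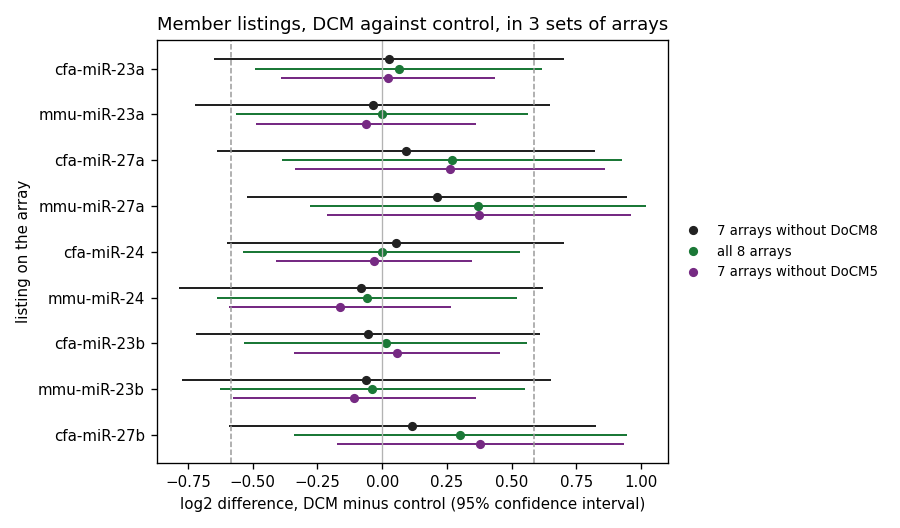
Log2 difference DCM minus control (points) with 95% confidence intervals from limma (lines) for the 9 member listings, on 7 arrays without DoCM8 (black), all 8 arrays (green) and 7 arrays without DoCM5 (purple); dashed lines mark a fold change of 1.5. Every interval includes 0, and the points of the miR-27 listings move furthest when DoCM8 is included, to 0.37 for mmu-miR-27a on all 8 arrays.

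The members also varied little between dogs of one group, under most but not all ways of scaling the arrays. On the 7 arrays without DoCM8, the within-group SD was 0.18 for cfa-miR-23a, 0.13 for cfa-miR-23b, 0.26 for cfa-miR-27b and 0.30 for cfa-miR-27a. The murine listings had 0.20 for mmu-miR-23a, 0.25 for mmu-miR-24, 0.27 for mmu-miR-23b and 0.31 for mmu-miR-27a. The median over the 9 listings was 0.25, against 0.50 over the 438 detected names, and all 9 lay below the 25th percentile of the names. Counted from the lowest SD, cfa-miR-23b was in place 4 and cfa-miR-23a in place 10 of 438. cfa-miR-24 was in place 1 with 0.069, and this listing lay near the background, where the glog2 scale is flat. Brightness alone moved little with the SD, whose median was 0.498 over the names brighter than the median name and 0.501 over the dimmer ones.

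Part of this pattern depended on the array labelled DoCM5. On the 7 arrays without it, the median SD of all names fell to 0.33 and that of the members to 0.17, and 5 of the 9 listings instead of 9 lay below the 25th percentile. cfa-miR-23b in place 17, cfa-miR-23a in place 32, mmu-miR-23a in place 46 and mmu-miR-24 in place 53 of 438 remained among the less variable names. cfa-miR-27a moved from place 55 to place 266 and cfa-miR-27b from place 33 to place 218, with SDs of 0.37 and 0.32. On all 8 arrays the members' median was 0.22 against 0.48, and 9 of 9 were again below the 25th percentile. The pattern also depended on the scaling. With quantile normalization, and with scaling to the 75th percentile of the names well above background on all arrays, 9 of 9 listings lay below the 25th percentile of SD. With that percentile taken over all names, or with no filter on dim features, 2 of 9 did, at median SDs of 0.50 for the members against 0.53 and 0.51 for all names, and with the median over features 4 of 9 did. These ranks are a description of these arrays and were not tested.

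**Figure D3:**
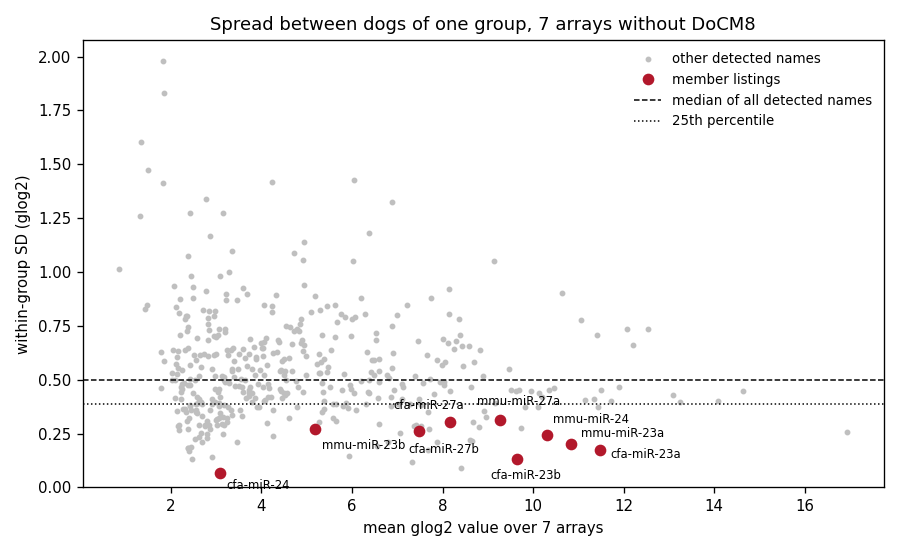
Within-group SD of each of the 438 detected names (vertical axis, glog2) against its mean glog2 value (horizontal axis) on 7 arrays without DoCM8, with the 9 member listings in red, the median of all names, 0.50, as a dashed line and the 25th percentile, 0.39, as a dotted line. All member listings lie below the dotted line.

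Members of one cluster are cut from a common transcript, so their differences on the same array were compared between the groups. Between bright listings the difference removes what changes both miRNAs alike, such as the amount of RNA. It does not do so with cfa-miR-24, which lay near the background, where the glog2 scale is flat. In the a cluster, miR-23a minus miR-27a, in canine listings and relative to the control mean, was -0.09, -0.01 and -0.10 on DoCM5 to DoCM7 and -0.63 on DoCM8. In the control dogs it was -0.21, 0.23, -0.10 and 0.07. The 3 DCM dogs thus fell within the range of the controls and DoCM8 lay below all others. In the b cluster, miR-23b minus miR-27b was -0.18, -0.18 and -0.16 on DoCM5 to DoCM7 and -0.64 on DoCM8, against -0.22, 0.08, -0.07 and 0.21 in the controls. DoCM8 was again the lowest, so that miR-27 was high relative to miR-23 in both clusters on this array. Without DoCM8 the group differences were -0.07 in the a cluster and -0.17 in the b cluster, with exact permutation p values of 0.686 and 0.229.

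The paralogs were compared in the same way. The difference of miR-23a and miR-23b kept within 0.07 of the control mean on 7 of the 8 arrays and was 0.31 on DoCM5. In these canine listings the within-group SD of the difference was 0.040 on the 7 arrays without DoCM5, against 0.13 on the 7 arrays without DoCM8. The murine listings varied more, from -0.26 on Con2 to 0.18 on Con4, with a within-group SD of 0.133 without DoCM5. The difference of miR-27a and miR-27b ranged from -0.20 on DoCM6 to 0.22 on DoCM5. Group differences were 0.08 for the miR-23 pair and -0.02 for the miR-27 pair, with exact permutation p values of 0.571 and 0.886.

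In all, 8 differences between members were tested. In the canine listings the groups overlapped for 8 of 8 in each set of arrays, the exact permutation p values on the 7 arrays without DoCM8 ran from 0.229 to 0.886, and the smallest after adjustment over the 8 was 0.886. Those with the dim cfa-miR-24 mostly followed the other miRNA and the scale of the array, and say little about the ratio within a cluster. With the murine listings wherever they existed, the smallest exact p was 0.143 without DoCM8 and 0.0571 on all 8 arrays. On the 7 arrays without DoCM5 the groups overlapped for 4 of the 8. There miR-23b minus miR-27b was lower in DCM by 0.485 and miR-27b minus miR-24 higher by 0.54, each with the smallest exact p possible, 0.0286, and with 0.114 after adjustment over the 8. These 2 differences combine the murine listing of one miRNA with the canine listing of miR-27b, and DoCM8 held the extreme value in both. The first of them rests on the dim mmu-miR-23b. The groups also did not overlap for miR-23a minus miR-27a, lower in DCM by 0.436, and for miR-27a minus miR-24, higher by 0.535. Both used murine listings only, with an exact permutation p of 0.0571 each and 0.114 after adjustment. DoCM8 held the extreme value in these as well.

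**Figure D4:**
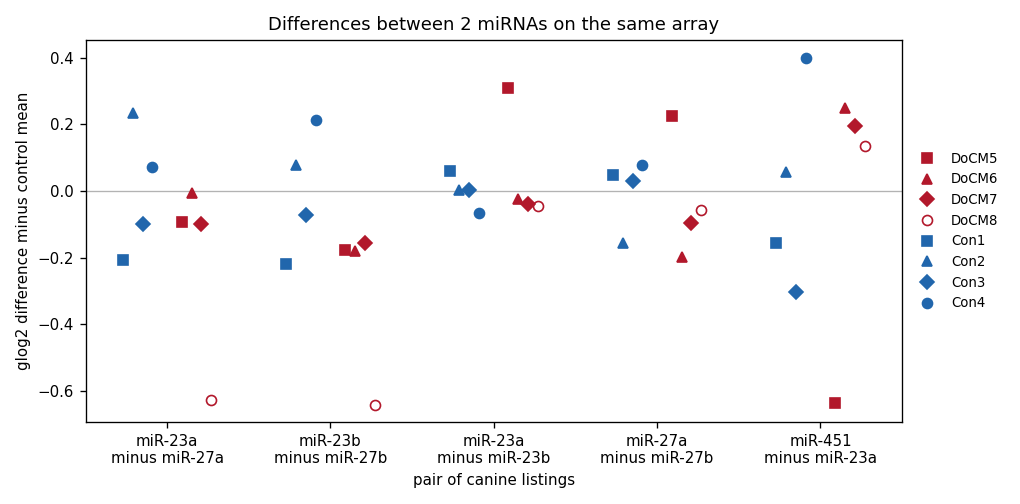
Difference of 2 canine listings on the same array, minus its mean over the 4 controls (vertical axis, glog2), for the control arrays in blue and the DCM arrays in red, with DoCM8 as an open circle. DoCM8 lies lowest for miR-23a minus miR-27a (-0.63) and miR-23b minus miR-27b (-0.64), and DoCM5 lies apart for miR-23a minus miR-23b (0.31) and miR-451 minus miR-23a (-0.63).

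The difference of cfa-miR-451 and cfa-miR-23a, the pair of the haemolysis ratio, was taken relative to the control mean, since an absolute value from array probes cannot be read against limits set in PCR. It was -0.63, 0.25, 0.20 and 0.13 on DoCM5 to DoCM8 and -0.16, 0.06, -0.30 and 0.40 on Con1 to Con4. The groups overlapped, with DoCM5 lowest and Con4 highest of all arrays. Relative to the control mean, cfa-miR-451 stood at -0.44 and cfa-miR-23a at 0.19 on DoCM5, whereas on Con4 cfa-miR-451 stood at 0.16 and cfa-miR-23a at -0.24. The DCM minus control difference was -0.06 without DoCM8, with an exact permutation p of 0.829, and -0.01 on all 8 arrays, with an exact permutation p of 0.971. Without DoCM5 it was 0.19, with an exact permutation p of 0.343.

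Markers of blood cells and of the heart gave the following background. Over all names, 12 of 438 (2.74%) passed the limits without DoCM8. Among the 7 erythrocyte listings (miR-451, miR-16, miR-144, miR-92a and miR-185), all detected, mmu-miR-144 passed the limits in DCM without DoCM8, with a log2 difference of 0.79 and an exact permutation p of 0.0571. The other erythrocyte listings ran from -0.28 for cfa-miR-92a to 0.58 for cfa-miR-144, and the median of the list was 0.0036. On all 8 arrays, where 17 of 438 names (3.88%) passed, 2 erythrocyte listings did, cfa-miR-144 at 0.76 and mmu-miR-144 at 0.98. The log2 of the summed levels of the erythrocyte list ran from 16.8 to 17.3 in the DCM dogs and from 16.9 to 17.3 in the controls. A sum mainly follows its brightest listings and does not stand for a whole list. Here that was cfa-miR-451, with a mean glog2 of 16.9 without DoCM8 against 13.2 for cfa-miR-16. In the leukocyte list below it was the listings of miR-223. Of 7 leukocyte listings, all detected, mmu-miR-142-3p passed with 1.21, and the summed level was 12.2 to 13.3 against 12.8 to 13.3. The other leukocyte listings ran from -0.45 for mmu-miR-223 to 0.41 for mmu-miR-142-5p, and the median of the list was 0.13. On all 8 arrays mmu-miR-142-3p was again the leukocyte listing that passed, at 1.28. None of the 8 platelet and endothelial listings passed, at 11.4 to 12.5 against 11.7 to 12.03. In the heart and muscle list 3 of 6 listings were detected, cfa-miR-1, cfa-miR-133b and cfa-miR-499, while cfa-miR-133a, cfa-miR-208a and cfa-miR-208b were not. None of the detected ones passed, and the summed level was 6.70 to 7.29 against 5.85 to 8.47. The part of these cells in the member values was not tested.

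How the members varied together was examined over the 8 arrays in 14 relations, 10 pairs of canine listings and 4 pairs of a canine and a murine listing. The points share the normalization of each array. The most alike were the canine and murine listings of one miRNA, with a Pearson r of 0.982 for miR-27a and 0.949 for miR-23a (Spearman rho 0.952 for both, exact permutation p for r, adjusted over the 14 relations, 0.00243 and 0.00208). Between different miRNAs the highest was cfa-miR-27a with its paralog cfa-miR-27b, at r = 0.926 and rho = 0.810 (adjusted exact p = 0.00556 for r and 0.0762 for rho). Probes of paralogs may share targets, and the part of this in the r was not tested. Partners of one cluster followed, at r = 0.844 and rho = 0.857 for cfa-miR-23b and cfa-miR-27b (adjusted exact p = 0.0072 and 0.05) and at r = 0.825 and rho = 0.762 for cfa-miR-23a and cfa-miR-27a (adjusted exact p = 0.0361 and 0.103). These 5 relations were the ones with an adjusted p for r under 0.05, while for rho only the 2 relations between listings of one miRNA were under 0.05.

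Members of different clusters were also alike, with r = 0.765 for cfa-miR-27a and cfa-miR-23b (adjusted exact p = 0.081), 0.686 for cfa-miR-23a and cfa-miR-27b (0.11) and 0.659 for cfa-miR-23a and cfa-miR-23b (0.16). Whether partners of one cluster were more alike than miRNAs of different clusters was not tested. Without the 2 arrays farthest from the median, r was 0.840 for the miR-27 pair, 0.780 for cfa-miR-23b and cfa-miR-27b, and 0.745 for cfa-miR-23a and cfa-miR-27a, with exact p values of 0.033, 0.089 and 0.13 over 6 arrays. The last 2 relations therefore did not hold at 0.05 without Con4 and DoCM8, or Con4 and DoCM6. As deviations from the group means, r was 0.912, 0.924 and 0.824 for these 3 pairs. The relation of cfa-miR-23a and cfa-miR-23b depended on single arrays, with r = 0.960 without DoCM5 and r = 0.250 without Con4 and DoCM6 (exact p = 0.683).

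The canine listing of miR-24 was only weakly related to the others on all 8 arrays. cfa-miR-24 had r between -0.28 and 0.31 with the 4 other canine listings and 0.247 with mmu-miR-24, with unadjusted exact p values of 0.45 or more. For the 4 canine listings this rested on DoCM8, without which r was 0.712 with cfa-miR-23a, 0.543 with cfa-miR-27a, 0.501 with cfa-miR-23b and 0.621 with cfa-miR-27b. The r with mmu-miR-24 stayed low, at 0.329 without DoCM8 and 0.125 without DoCM5. With 75th percentile scaling over all names, r ran from 0.529 to 0.855 with the 4 canine listings and was 0.846 with mmu-miR-24. This scaling raised r in each of the 14 relations, such as from 0.659 to 0.992 for cfa-miR-23a and cfa-miR-23b. The rise was thus not particular to single listings. The range of cfa-miR-24 over the 8 arrays was 0.28 on the glog2 scale, which lies close to the background. mmu-miR-24 had r = 0.82 with mmu-miR-23a, 0.65 with cfa-miR-23a, 0.45 with cfa-miR-27a, 0.20 with cfa-miR-23b and 0.13 with cfa-miR-27b, given as a description. The 2 listings of miR-23b were also weakly related in the vsn normalization, with r = 0.363 and an adjusted exact p of 0.59. Their r was 0.576 without DoCM5, and 0.901 with 75th percentile scaling over all names (unadjusted exact permutation p = 0.0095).

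**Figure D5:**
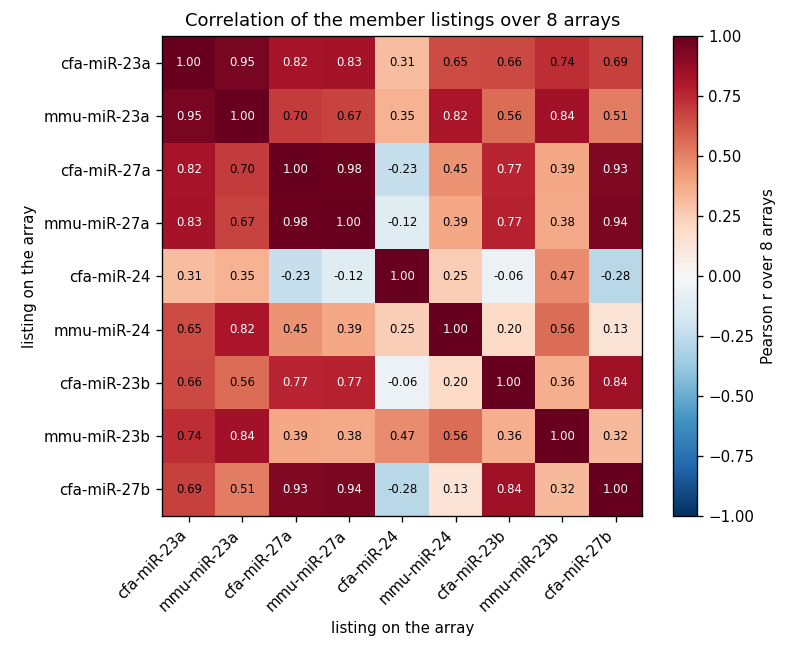
Pearson correlation of the glog2 values of the 9 member listings over the 8 arrays, for each pair of listings, from -1 (blue) to 1 (red). The listings of miR-27a and miR-27b form a block with r of 0.93 and above, and cfa-miR-24 has the lowest values, down to -0.28.

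Among 339 other names with at least 50% of their features kept, those with a pattern most like the members over the 8 arrays were taken as a description. For cfa-miR-23a they were cfa-miR-126 (r = 0.820), a miRNA of endothelium and platelets, mmu-miR-33 (0.807) and cfa-miR-660 (0.767). For cfa-miR-27a they were mmu-miR-193 (0.908), mmu-miR-33 (0.873) and cfa-miR-17 (0.843). For cfa-miR-27b they were mmu-miR-101c (0.837), cfa-miR-101 (0.815) and cfa-miR-29b (0.812). The nearest names to cfa-miR-23b were less alike, with cfa-miR-143 (0.711), cfa-miR-29c (0.673) and cfa-miR-199 (0.668). For the dim cfa-miR-24 they were mmu-miR-129-2-3p (0.656), cfa-miR-155 (0.632) and cfa-miR-206 (0.547), and the first of these had r = 0.274 without DoCM8. The r of cfa-miR-29b with cfa-miR-27b was 0.455 without DoCM8.

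The passenger strands, which are mostly degraded when the mature strand is loaded, were listed for mouse only. Of the 6 listings, 5 had no feature kept, with at most 1 of 40 features well above background on any array for mmu-miR-23b*, mmu-miR-24-1*, mmu-miR-24-2*, mmu-miR-27a* and mmu-miR-27b*. mmu-miR-23a* had 30 of 40 features kept. Its values were 3.75, 4.74, 3.85 and 3.93 on DoCM5 to DoCM8 and 4.11, 5.12, 5.28 and 4.16 on Con1 to Con4. The groups overlapped, and Con2 and Con3 were the highest. The log2 difference was -0.57 with a standard error of 0.42 (adjusted p = 0.997 in limma, exact permutation p = 0.229). cfa-miR-128, whose seed overlaps that of miR-27 shifted by a base, ranged from 7.02 to 8.30 in the DCM dogs without DoCM8 and from 7.06 to 7.87 in the controls, with a log2 difference of 0.10 and an exact permutation p of 0.943.

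The 2 probes of a listing were compared as a check within the array. Their mean signals differed by a ratio between 1.10 for mmu-miR-24 and 9.61 for cfa-miR-23b. The log2 difference of DCM and control was nearly the same in both probes of mmu-miR-24, at -0.082 and -0.085, and of cfa-miR-27a, at 0.116 and 0.127. The largest gap between probes of a listing was 0.14, for cfa-miR-23a, with 0.06 in the brighter and -0.08 in the dimmer probe. For cfa-miR-24 and both listings of miR-23a the sign of the difference therefore depended on the probe, and for the other listings it did not.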

How the data were processed

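One-colour Agilent miRNA arrays were hybridized with the serum RNA of 8 dogs, 1 array each. The authors deposited a background-subtracted intensity per feature (Agilent Feature Extraction 10.7.3.1 per the submitters' processing notes), not normalized between arrays, together with the median signal, its background and the scanner flags. Groups came from the labels. The filter retained features that were well above background on 2 or more arrays of either group, and dropped a feature on any array where it carried an outlier flag. The mean intensity of the kept features of a name was normalized by the vsn model (own implementation, least trimmed squares quantile 0.9, 5 slices, 7 iterations). A name was detected when at least 1 feature was kept. limma 3.58.1 in R 4.3.3 was fitted over all 438 names on 7 arrays without the one labelled DoCM8, the name the study gives the array it left out, with a fold change over 1.5 at an unadjusted p under 0.05 as limits and, separately, an adjusted p (Benjamini-Hochberg) under 0.05. Exact permutation tests were two-sided. The within-group SD pooled both groups. The fit was tested on simulated data.

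The members, marker lists and tests were chosen with earlier results of these data known. Named were all member listings, the 3 names most like each canine member, the passenger strands, miR-451 and miR-128. Alternatives covered the arrays, normalization (75th percentile, quantile), background correction (normexp with an offset of 50, on the median signal), averaging, flags, filters, the value table of the series, the slide column and the listing. The number of arrays limits the precision. A limma p sets a group difference against the variation between arrays, with the spread shared over all names. An exact permutation p sets a result against other splits or pairings of the arrays. No dog had a repeat array, so variation between dogs cannot be told apart from variation between hybridizations. Figures were drawn with matplotlib 3.10.9.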

Additional observations from a re-analysis of the deposited data

Results flagged for a closer look

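Of the 36 groups of 4 arrays examined (9 listings and 9 within-array differences in both groups), 4 held an array whose gap to its nearest neighbour exceeded the critical share of the group's range, where chance gives about 1 in 20 groups, or 1.8 of 36. For miR-23a minus miR-27a, DoCM8 stood at 2.71 against 3.24 to 3.33 in the other DCM dogs, a gap of 0.852 of the range. For miR-23b minus miR-27b, DoCM8 stood at 1.60 against 2.06 to 2.09, a gap of 0.949 of the range. For miR-23a minus miR-23b, DoCM5 stood at 2.11 against 1.76 to 1.78, a gap of 0.944 of the range. For miR-451 minus miR-23a, DoCM5 stood at 4.86 against 5.62 to 5.74, a gap of 0.871 of the range. These values are glog2 differences of 2 probes, of which only the variation between arrays can be read. No control array and no single listing was marked in this way. The groups share listings and arrays and are not independent, so the 4 cannot be read as an excess over the 1.8.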

How the results depend on the processing

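No member listing passed the limits in any of the 21 settings run, and none had an unadjusted p under 0.05 in limma in 194 refits of single listings. The setting with the value table of the series holds the same signal and repeated the main values, so it adds no separate check. The number of all names past the limits, 12, was 34 with array weights on all 8 arrays, 19 without DoCM5 instead of DoCM8, 2 with normexp on the median signal and quantile normalization together, 43 of all 1224 names with no filter, 27 with 1 array well above background enough and 7 with at least 50% of features kept, and 10 to 30 with each array left out, the highest without DoCM6 (30) and DoCM5 (29). mmu-miR-27a among the listings, and miR-23b minus miR-27b among the within-array differences, had no change of sign in the settings run. The other log2 differences and within-array differences changed sign as follows. On all 8 arrays they were 0.00019 for mmu-miR-23a, -0.0025 for cfa-miR-24, 0.013 for cfa-miR-23b, 0.067 for miR-23a minus miR-24 and 0.015 for miR-23b minus miR-24. With array weights on all 8 arrays they were -0.083 for cfa-miR-24 and 0.061 for cfa-miR-23b. Without DoCM5 instead of DoCM8 they were -0.032 for cfa-miR-24, 0.057 for cfa-miR-23b, 0.055 for miR-23a minus miR-24, 0.089 for miR-23b minus miR-24, -0.035 for miR-23a minus miR-23b and 0.19 for miR-451 minus miR-23a. With 75th percentile scaling over all names they were 0.35 for mmu-miR-23a, 0.31 for mmu-miR-24, 0.33 for cfa-miR-23b, 0.26 for mmu-miR-23b, 0.30 for miR-23a minus miR-24 and 0.22 for miR-23b minus miR-24. With that percentile over names well above background on all arrays they were 0.054 for mmu-miR-23a, -0.19 for cfa-miR-24, 0.0064 for mmu-miR-24, 0.032 for cfa-miR-23b, 0.30 for miR-23a minus miR-24 and 0.22 for miR-23b minus miR-24. With quantile normalization they were 0.20 for mmu-miR-23a, 0.056 for mmu-miR-23b, 0.22 for miR-23a minus miR-27a and 0.30 for miR-23a minus miR-24. With normexp and quantile normalization they were 0.21 for mmu-miR-23a, 0.022 for mmu-miR-23b, 0.23 for miR-23a minus miR-27a and 0.34 for miR-23a minus miR-24. With the median over features they were -0.38 for cfa-miR-27a, 0.045 for cfa-miR-23b, 0.72 for mmu-miR-23b, 0.56 for miR-23a minus miR-27a, 0.089 for miR-23a minus miR-24 and -0.47 for miR-27a minus miR-24. With flagged features kept it was 0.032 for miR-27a minus miR-27b. With no filter they were 0.21 for mmu-miR-23a, -0.026 for cfa-miR-24, 0.16 for mmu-miR-24, 0.19 for cfa-miR-23b and 0.12 for mmu-miR-23b. With 1 array well above background enough they were 0.21 for mmu-miR-23a, 0.17 for mmu-miR-24, 0.19 for cfa-miR-23b and 0.12 for mmu-miR-23b. With the slide column as a block they were -0.051 for cfa-miR-23a, -0.0099 for cfa-miR-27a and -0.012 for cfa-miR-27b. With the mean of both listings they were -0.0044 for cfa-miR-23a, -0.016 for cfa-miR-24, 0.011 for miR-23a minus miR-24 and 0.036 for miR-27a minus miR-27b. With the murine listing they were 0.047 for miR-23a minus miR-24, 0.022 for miR-23b minus miR-24 and 0.096 for miR-27a minus miR-27b. With each of the 7 arrays left out, the ranges were -0.031 to 0.14 for miR-23a minus miR-23b, -0.052 to 0.043 for miR-23a minus miR-24, -0.13 to 0.014 for miR-23a minus miR-27a, -0.045 to 0.18 for miR-27a minus miR-24, -0.15 to 0.064 for miR-27a minus miR-27b, -0.012 to 0.19 for miR-27b minus miR-24, -0.22 to 0.22 for miR-451 minus miR-23a, -0.031 to 0.14 for cfa-miR-23a, -0.092 to 0.0065 for cfa-miR-23b, -0.12 to 0.11 for mmu-miR-23a, -0.19 to 0.078 for mmu-miR-23b, -0.22 to 0.14 for mmu-miR-24. The r of cfa-miR-24 changed sign, to -0.128 with cfa-miR-23a without the 2 farthest arrays, 0.749 with cfa-miR-27a without the 2 farthest arrays, 0.612 with cfa-miR-27a with 75th percentile scaling over all names, 0.149 with cfa-miR-23b without the 2 farthest arrays, 0.805 with cfa-miR-23b with 75th percentile scaling over all names, 0.0014 with cfa-miR-27b without the 2 farthest arrays, 0.529 with cfa-miR-27b with 75th percentile scaling over all names. The median within-group SD of the members, 0.25, rose to 0.50 with 75th percentile scaling over all names or with no filter and to 0.53 with the median over features, a summary that lies between 2 probes of unequal brightness. This spread was compared between settings after seeing the data. Why signs changed was not tested. No pairing by dog number was possible, since DCM and control dogs carry different numbers. The slide column served as the block, and 13 names passed with it. Con4 was alone in its column without DoCM8 and did not enter this group difference. Depth is limited by signal, since cfa-miR-24 and mmu-miR-23b lay near the background.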
